A study of Mus musculus with 6 samples.

Results

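The cell cycle genes described here are 34 named genes whose RNA is made mainly in dividing cells, chosen by symbol as a fixed list of replication, cyclin and mitosis genes. All 34 were rows of the deposited expression table of 18848 genes. They were followed across the 19 cell classes of the deposited table of cells, 2 of which it names proliferating (Prof_cancer and Prof_immune), and across 4 treatments. By role, 8 members load or assist the replication fork (Mcm2 to Mcm7, Pcna and Pclaf), 4 supply DNA building blocks (Tyms, Rrm1, Rrm2 and Tk1), and 6 are cyclins or the kinase Cdk1 (Ccne1, Ccne2, Ccna2, Ccnb1, Ccnb2 and Cdk1). A further 5 are mitotic kinases or checkpoint proteins (Aurka, Aurkb, Plk1, Bub1 and Bub1b), 7 belong to the chromosomal passenger complex, the spindle or the centromere (Birc5, Cdca8, Tpx2, Cenpa, Cenpe, Cenpf and Stmn1), and 4 are other genes of dividing cells (Mki67, Top2a, Ube2c and Cdca3).

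The study asked whether a diet that raises ketone bodies alters tumours that resist immunotherapy. PPS-ICBR cells, a mouse line of prostate cancer that resists immune checkpoint blockade, formed tumours in C57Bl6 mice, and 3 tumours per treatment were dissociated and run through single-cell RNA sequencing. BD+ICB tumours received the butanediol diet together with antibodies to PD-1 and CTLA-4 (0.2 mg biweekly), ICB tumours the same antibodies on standard chow, BD tumours the diet alone, and SD tumours standard chow alone. The diet mixed 80 mL of 1,3-butanediol, an alcohol that the body turns into the ketone body β-hydroxybutyrate, with 120 mL of water, and this went into 198 g of chow sweetened by 2 g of saccharine. BD+ICB and ICB tumours shared one pooled library and BD and SD tumours the other, so antibody treatment and library cannot be told apart, while each diet comparison lies within a library. Cells came from the leukocyte layer of a Percoll gradient, which limits what the counts of tumour cells can say. The line is one source of cells for all 12 tumours.

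The table of cells holds 5749 cells. Each tumour gave 70 to 913 cells and 510984 to 13007506 UMIs (unique molecules counted), the fewest cells being in BD 2 (70) and BD 3 (117). A stricter reading of the hashtag antibodies that mark tumours (at least 10 counts and 3 times the second hashtag) kept 5325 cells, among them 124 of the 140 Prof_cancer and 159 of the 165 Prof_immune cells. The libraries shared 1931 barcodes, and 186 deposited cells had a barcode present in both. Levels are given as CPM, a gene's count scaled to 1000000 UMIs of the cells summed, or as the share of cells with a UMI.

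Cells divide by copying their DNA in S phase and separating the copies in mitosis. The MCM proteins form the ring helicase loaded onto origins before S phase, cyclin E and then cyclin A drive DNA synthesis, and cyclin B with Cdk1 starts mitosis, in which the aurora kinases, the spindle and the centromere proteins part the chromosomes. RNA of the replication genes is induced by E2F factors around the start of S phase, and RNA of the mitotic genes later, through promoters carrying CCAAT boxes and a cell cycle homology region. In tumours these genes mark dividing cancer cells, and also dividing T cells and macrophages.

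The promoters of the members were read by role. RefSeq promoters (GRCm38.p6, 250 bases before to 50 after the start) were matched for 28 of 34 members by symbol, and not for Ccna2, Ccne2, Tpx2, Aurkb, Mcm4 and Stmn1. All letters were searched on both strands. The cell cycle homology region was read as TTTGAA and the CCAAT box by its name. An E2F match was the run TTCCCGC, and an alternative spelling counted alike was the run TTGGCGC. The CCAAT box read on the other strand can share letters with the second E2F spelling. TTTGAA was found in 12 of 16 mitotic and other members (75%), in 1 of 12 replication, nucleotide and cyclin E members (8.33%, Mcm2), and in 18.1% of the 27025 promoters in the table. The E2F letters were found in 3 of 16 (18.8%), 6 of 12 (50%) and 6.93% of those sets. CCAAT was found in 15 of 16 (93.8%), 9 of 12 (75%) and 37.9%. A match describes letters in a window and no binding was measured. The 150 bases before the start are printed 5′ to 3′ on the gene's strand for genes that carry results below, with these letters on either strand in capitals. They were picked to show mitotic genes (Cdk1, Top2a and Ube2c), replication and nucleotide genes (Mcm6 and Rrm1), and Mki67, which holds all 3 kinds of letters.
Cdk1, chr10:69352913-69353062, minus strand: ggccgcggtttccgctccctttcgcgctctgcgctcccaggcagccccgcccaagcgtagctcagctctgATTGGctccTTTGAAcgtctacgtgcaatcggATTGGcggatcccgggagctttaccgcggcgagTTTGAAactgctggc
Top2a, chr11:99024190-99024339, minus strand: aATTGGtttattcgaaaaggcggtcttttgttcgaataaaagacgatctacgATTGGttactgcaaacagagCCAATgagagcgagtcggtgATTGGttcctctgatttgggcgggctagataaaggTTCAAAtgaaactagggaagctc
Ube2c, chr2:164769779-164769928, plus strand: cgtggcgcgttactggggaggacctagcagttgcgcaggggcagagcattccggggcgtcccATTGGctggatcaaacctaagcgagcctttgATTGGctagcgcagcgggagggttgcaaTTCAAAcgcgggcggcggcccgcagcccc
Mcm6, chr1:128359706-128359855, minus strand: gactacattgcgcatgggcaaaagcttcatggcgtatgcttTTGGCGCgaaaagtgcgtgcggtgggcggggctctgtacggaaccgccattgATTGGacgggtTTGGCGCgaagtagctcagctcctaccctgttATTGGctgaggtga
Rrm1, chr7:102441545-102441694, plus strand: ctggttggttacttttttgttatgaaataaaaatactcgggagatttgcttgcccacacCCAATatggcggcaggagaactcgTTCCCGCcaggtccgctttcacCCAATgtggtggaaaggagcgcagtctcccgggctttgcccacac
Mki67, chr7:135716380-135716529, minus strand: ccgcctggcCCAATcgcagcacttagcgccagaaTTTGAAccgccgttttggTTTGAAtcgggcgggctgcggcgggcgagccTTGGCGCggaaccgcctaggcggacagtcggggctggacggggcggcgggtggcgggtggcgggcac
Within these windows Cdk1, Top2a, Ube2c and Mki67 hold TTTGAA or its reverse, and Mcm6, Rrm1 and Mki67 hold E2F letters. Cdk1 also has an E2F match, which lies further from the start than the printed bases.

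Most RNA of the cell cycle genes came from few cells. The 140 Prof_cancer cells held 62.4% of all member UMIs and the 165 Prof_immune cells 14.0%. Mesenchymal cells (241 cells) held 5.99%, and other macrophages (204 cells) 3.47%. Summed over the members, the level was 5325 CPM in Prof_cancer, 6429 CPM in Prof_immune, 1380 CPM in other macrophages, 986 CPM in mesenchymal cells, 790 CPM in CD8 T cells and 410 CPM in Cxcr2+ neutrophils. The classes were drawn on these same cells and genes, so these values are a description with no test.

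Depth also differed between the classes. The median cell had 108620 UMIs in Prof_cancer, 16210 in Prof_immune, 21886 in mesenchymal cells, 15366 in other macrophages and 2393 in Cxcr2+ neutrophils. Unthinned, Mki67 was seen in 95% of Prof_cancer cells, 95.2% of Prof_immune cells and 11.0% of the rest. With every cell thinned to 1000 UMIs and shallower cells left out, those shares were 13.6%, 31.5% and 2.05%. Cxcr2+ neutrophils, mature cells that do not divide, had Mki67 in 2.57% of thinned cells and 6.24% of unthinned cells, and thinned shares at or below that are read as background. The average of the Prof_cancer and Prof_immune shares lay above the highest other class for 34 of 34 members unthinned and for 31 of 34 thinned. The 3 exceptions, Pcna, Mcm6 and Mcm4, are all replication genes.

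**Figure D1:**
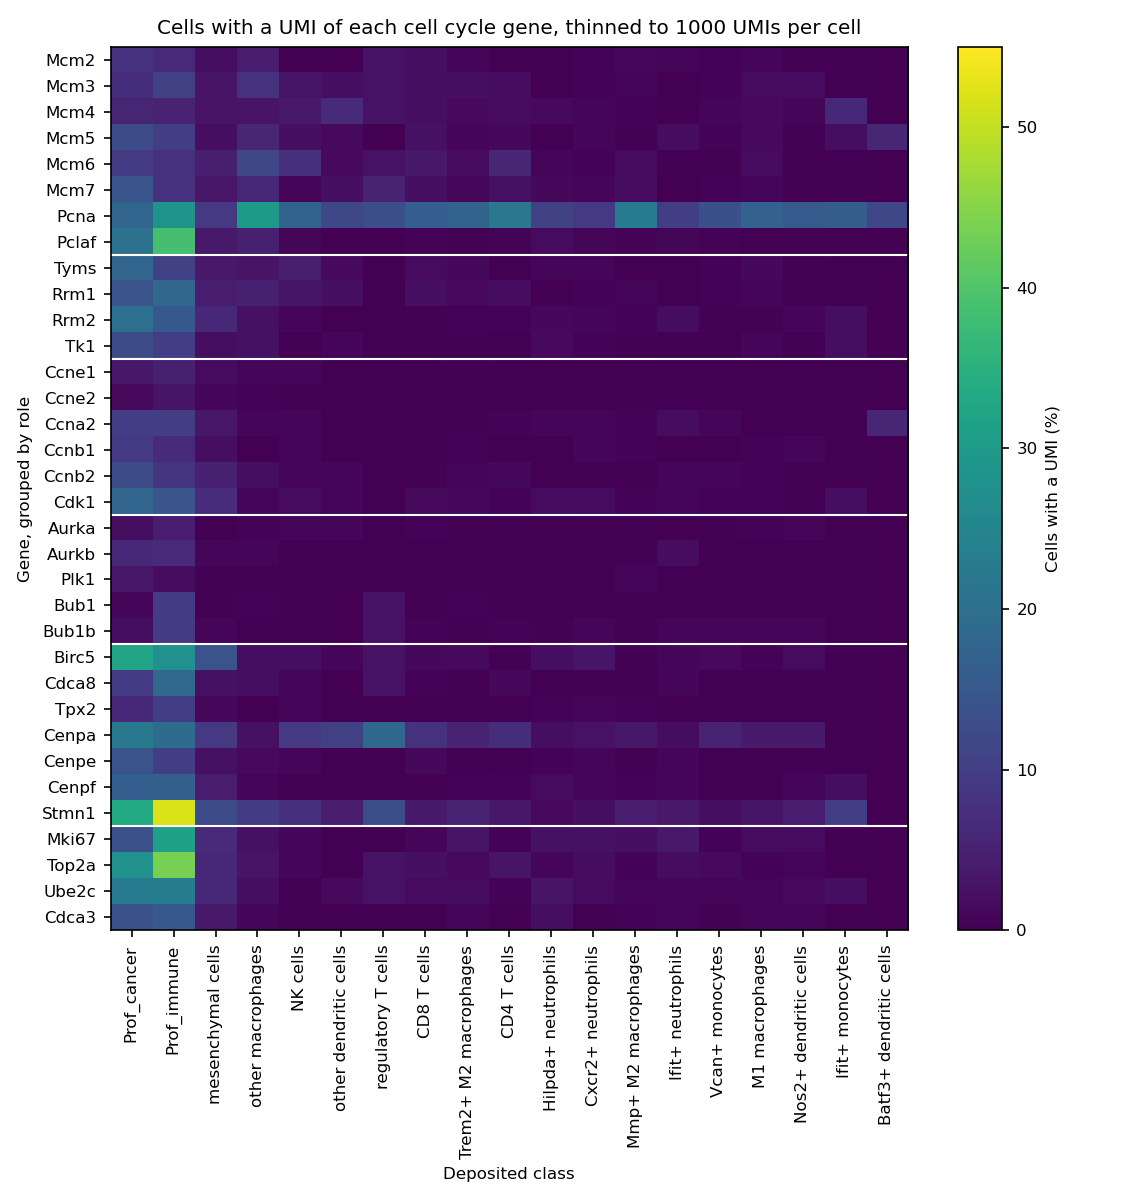
Percent of cells with a UMI of each of the 34 cell cycle genes (rows) in each of the 19 deposited classes (columns), every cell thinned to 1000 UMIs. Stmn1 reached 33.6% in Prof_cancer and 52.1% in Prof_immune against 4.27% in the rest, while Pcna was seen in 29.9% of other macrophages, above both proliferating classes.

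Among the replication genes, Pcna, the sliding clamp that holds DNA polymerase on its template, was the least specific member. It was seen in 17.9% of Prof_cancer, 28.5% of Prof_immune, 29.9% of other macrophages and 15.3% of all cells outside the proliferating classes, thinned. Only 36.2% of its UMIs came from the proliferating classes, the lowest value of the 34 genes. Pcna is also known to serve DNA repair. Mcm6, a helicase subunit, was seen in 9.29% of Prof_cancer, 7.88% of Prof_immune and 11.8% of other macrophages, and Mcm5 in 12.9%, 10.3% and 5.88%. Mcm4 was seen in 5.71% of Prof_cancer, 5.45% of Prof_immune and 6.67% of other dendritic cells. Pclaf, a partner of Pcna at the fork, was more restricted, at 20.7% of Prof_cancer, 38.8% of Prof_immune and 0.914% of the rest. Rrm2, the subunit of ribonucleotide reductase that is made in S phase, was seen in 20.0%, 15.2% and 0.970%.

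Among the cyclins and mitotic genes, Cdk1, the kinase that starts mitosis, was seen in 17.9% of Prof_cancer, 14.5% of Prof_immune and 1.29% of the rest, and Ccnb1, its cyclin, in 9.29%, 6.67% and 0.466%. Birc5 (survivin), a chromosomal passenger, was seen in 32.1%, 27.9% and 2.07%, and in 14.1% of mesenchymal cells, the highest other class. Top2a, the topoisomerase that untangles chromosomes, was seen in 27.9%, 43.6% and 1.60%. Ube2c, which passes ubiquitin to mitotic cyclins, was seen in 22.9%, 23.0% and 1.68%. The highest fractions of UMIs inside the proliferating classes belonged to the kinetochore genes Cenpf (92.8%) and Cenpe (90.9%) and to Ube2c (90.5%). Cenpa, the centromeric histone, was seen in 22.1% of Prof_cancer and 19.4% of Prof_immune cells, against 4.81% of the rest and 2.70% of Cxcr2+ neutrophils. It was less restricted, with 64.9% of its UMIs in the proliferating classes and a share of 18.4% in the 38 thinned regulatory T cells.

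Some thinned shares differed between the proliferating classes, though low shares rest on few cells. Thinned, Bub1, a kinase of the spindle checkpoint, was seen in 0.714% of Prof_cancer and 9.70% of Prof_immune cells, at 33.8 and 57.2 CPM. Unthinned, its shares ran the other way, at 74.3% and 60.6%, in classes of unlike depth. Plk1, a kinase that drives mitotic entry, was low in both when thinned, at 3.57% and 1.82%. The label Prof_cancer was checked against its markers. The fibroblast genes Col1a1, Col1a2, Col3a1, Dcn and Sparc and the keratin Krt8 were detected in 140 of 140 cells and Krt18 in 99 cells, whereas Epcam was in 1, Cdh1 in 2 and Krt5 in 0 cells, which allows a share of up to 2.14%. These counts are unthinned, at a median of 108620 UMIs per cell, where genes of low level are also detected. Pdgfrb, a further mesenchymal marker, is not given here. Thinned, Krt8 was in 47.1% of Prof_cancer and 40.7% of mesenchymal cells, against 6.04% of Cxcr2+ neutrophils. The defining epithelial adhesion genes were therefore near 0, and the class is called here by its deposited name only.

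Prof_immune held cells of more than one lineage. By markers picked after the data were seen, 33 of its cells had T cell genes only and 124 had myeloid genes only. By tumour, the T cell part was 6 of 10, 8 of 14 and 2 of 12 cells in BD+ICB, against 7 of 21, 2 of 12 and 3 of 18 in ICB. It was 3 of 15, 0 of 4 and 0 of 6 in BD, against 2 of 34, 0 of 5 and 0 of 14 in SD tumours. The groups overlapped within both libraries. In thinned T-only cells Mki67 was seen in 48.5%, against 26.6% of myeloid-only cells, at median depths of 15415 and 16704 UMIs. Stmn1, a microtubule destabiliser, was seen in 75.8% of T-only and 45.2% of myeloid-only cells, and Mcm5 in 27.3% and 6.45%. Ccnb1 ran the other way, at 3.03% and 8.06% thinned and 33.3% and 54.8% unthinned. The thymidine kinase Tk1 had no steady order, at 6.06% and 12.1% thinned but 72.7% and 60.5% unthinned. These rest on 33 T cells and were not tested.

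Summed over all cells of a tumour, the 34 genes reached 1921, 1562 and 1417 CPM in BD+ICB, 2441, 1851 and 1937 CPM in ICB, 1426, 1256 and 1100 CPM in BD, and 2555, 1733 and 1907 CPM in SD tumours. The 3 BD tumours were below all SD tumours, and the BD+ICB and ICB ranges overlapped. BD tumours yielded 2, 0 and 0 Prof_cancer cells, against 18, 9 and 13 in SD tumours. BD+ICB tumours yielded 12, 11 and 6, against 36, 16 and 17 in ICB tumours. Prof_immune cells numbered 15, 4 and 6 in BD and 34, 5 and 14 in SD tumours, and 10, 14 and 12 in BD+ICB and 21, 12 and 18 in ICB tumours. Prof_cancer cells supplied 26.1, 0 and 0% of member UMIs in BD, against 43.8, 55.9 and 55.3% in SD tumours, and 71.2, 55.3 and 53.4% in BD+ICB, against 75.1, 69.0 and 68.3% in ICB tumours.

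**Figure D2:**
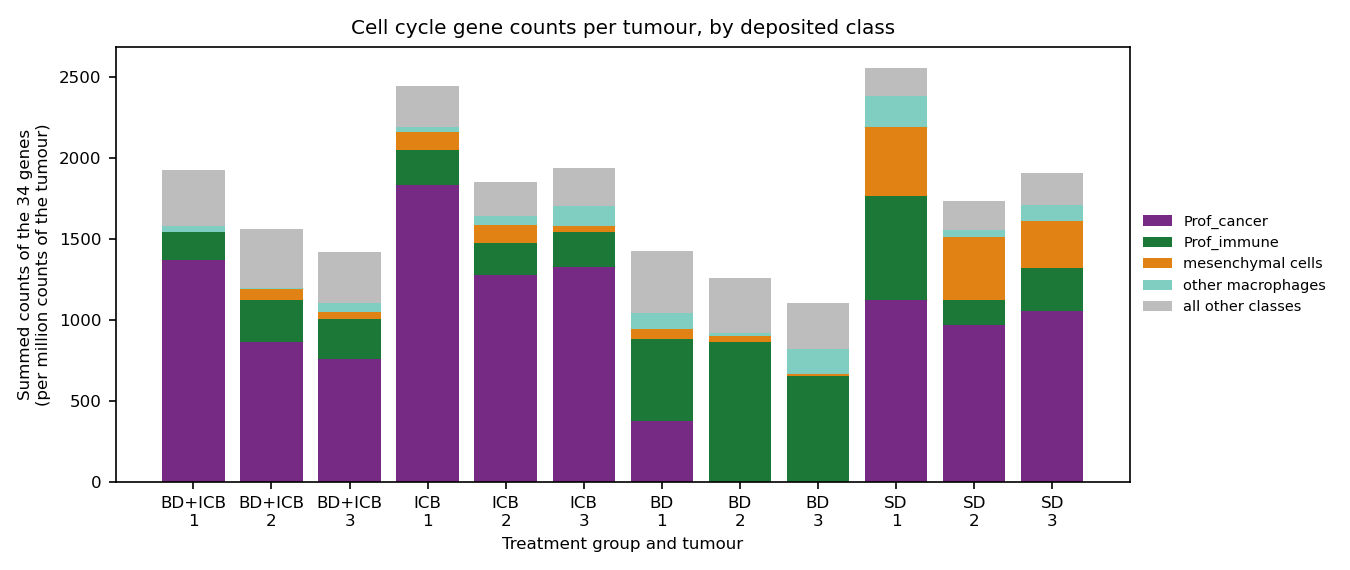
Level of the 34 cell cycle genes together (CPM of all cells of a tumour), stacked by the class that supplied the UMIs, one bar per tumour, in the order BD+ICB, ICB, BD, SD. Only BD 1 among the BD bars has a Prof_cancer part, 26.1% of its member UMIs.

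In tumours summed over all cells, cell cycle genes of several roles were lower under the butanediol diet without blockade. In BD against SD tumours 15 of 34 members fell and 0 rose (edgeR quasi-likelihood test, Benjamini-Hochberg adjusted over 11988 genes). The background is wide: 21.3% of all genes tested were called and 10.2% were called lower. The median member log2 fold change was -0.68, against 0.03 over all genes, and 31 of 34 folds were below 0. DESeq2 called 16 members, which included all 15, beside 2575 of 11983 genes. For 21 of 34 members every BD tumour was below every SD tumour, but how many of all genes do so was not counted. In such sums fewer dividing cells and less RNA per cell cannot be told apart. By role, 6 of 7 passenger, spindle and centromere genes fell, 3 of 6 cyclins and Cdk1, 2 of 4 nucleotide genes, 2 of 4 other genes (Ube2c and Cdca3), 1 of 5 mitotic kinases and checkpoint genes (Aurka) and 1 of 8 replication genes (Mcm5).

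Cdk1 (ENSMUSG00000019942) stood at 37.8, 43.1 and 28.2 CPM in BD tumours, against 105.5, 74.9 and 80.9 CPM in SD tumours. No BD tumour reached the lowest SD tumour, and the log2 fold change was -1.15 ± 0.23 (SE; edgeR adjusted p = 0.0047). Birc5 (ENSMUSG00000017716) stood at 78.8, 70.5 and 41.9 CPM in BD, against 160.2, 122.9 and 135.7 CPM in SD tumours. The groups were apart again, with a log2 fold change of -0.98 ± 0.23 (edgeR adjusted p = 0.012). Ccnb2, a B-type cyclin, stood at 20.7, 21.5 and 17.9 CPM in BD, against 41.9, 40.2 and 46.4 CPM in SD tumours, a log2 fold change of -0.97 ± 0.21 (edgeR adjusted p = 0.0076). These groups did not overlap either, and BD 3 was the lowest tumour for all 3 genes.

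The other called members had the same layout. Ccna2, the cyclin of S phase and early mitosis, was at 21.5, 21.5 and 16.2 CPM in BD, against 40.6, 32.0 and 36.2 CPM in SD tumours. Cdca3, a trigger of mitotic entry, was at 32.1, 33.3 and 35.9 CPM in BD, against 69.2, 58.9 and 61.5 CPM in SD tumours. Cenpf was at 30.9, 41.1 and 15.4 CPM in BD, against 81.2, 68.3 and 64.0 CPM in SD tumours. Groups did not overlap for any of these. The centromere genes Cenpf, Cenpe and Cenpa had log2 fold changes of -1.23, -1.13 and -0.75. The remaining spindle genes, Cdca8 of the passenger complex and Tpx2, which activates Aurka at the spindle, had -0.86 and -0.71. Ccna2, Cdca3, Ube2c and Aurka had -0.75, -0.77, -0.84 and -0.98. Their edgeR adjusted p-values ran from 0.0057 for Cdca3 to 0.042 for Aurka.

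Of the S phase members, Rrm2 (ENSMUSG00000020649) was at 34.5, 9.79 and 23.1 CPM in BD, against 71.9, 57.0 and 54.8 CPM in SD tumours (log2 fold change -1.09 ± 0.28, edgeR adjusted p = 0.017). Mcm5 (ENSMUSG00000005410) was at 28.9, 11.7 and 17.1 CPM in BD, against 59.1, 39.4 and 36.6 CPM in SD tumours (-0.91 ± 0.28, edgeR adjusted p = 0.037). Tyms, thymidylate synthase, was at 36.6, 15.7 and 18.8 CPM in BD, against 69.2, 40.6 and 45.8 CPM in SD tumours (-0.83 ± 0.25, edgeR adjusted p = 0.035). For all 3 genes the groups were apart, and BD 1 was the highest BD tumour.

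The remaining 19 members did not pass. Ccnb1 (ENSMUSG00000041431) was at 26.0, 13.7 and 9.40 CPM in BD, against 38.8, 50.4 and 39.5 CPM in SD tumours, a log2 fold change of -1.07 ± 0.38 (edgeR adjusted p = 0.066). Mki67 (ENSMUSG00000031004), the classical proliferation antigen, was at 62.2, 86.1 and 70.1 CPM in BD, against 120.8, 75.7 and 76.9 CPM in SD tumours, so the groups overlapped (-0.22, edgeR adjusted p = 0.47). Top2a was at 69.5, 74.4 and 67.5 CPM in BD, against 125.2, 49.6 and 87.2 CPM in SD tumours (-0.18, edgeR adjusted p = 0.66). In both genes SD 1 stood above the other SD tumours. Stmn1 (ENSMUSG00000028832) was at 174.3, 166.3 and 136.7 CPM in BD, against 319.3, 146.4 and 205.3 CPM in SD tumours (-0.34, edgeR adjusted p = 0.33). Pcna (ENSMUSG00000027342) ran the other way, at 187.4, 187.9 and 186.3 CPM in BD, against 204.9, 140.1 and 149.1 CPM in SD tumours (0.34, edgeR adjusted p = 0.11). Plk1, Bub1, Bub1b, Ccne1 and Ccne2 were between -0.45 and 0.06 on the log2 scale.

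The count of 15 rested on which droplets and tumours entered. Without the hashtag total limit, over every barcode assigned to a tumour, 0 of 34 members and 0 of 13235 genes were called by edgeR, with 1 member at an unadjusted p under 0.05 and a median log2 fold change of -0.17. Without BD 3, 3 members were called, without SD 1, 8, and without BD 2, 9. Counts over all genes are not given for these settings.

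**Figure D3:**
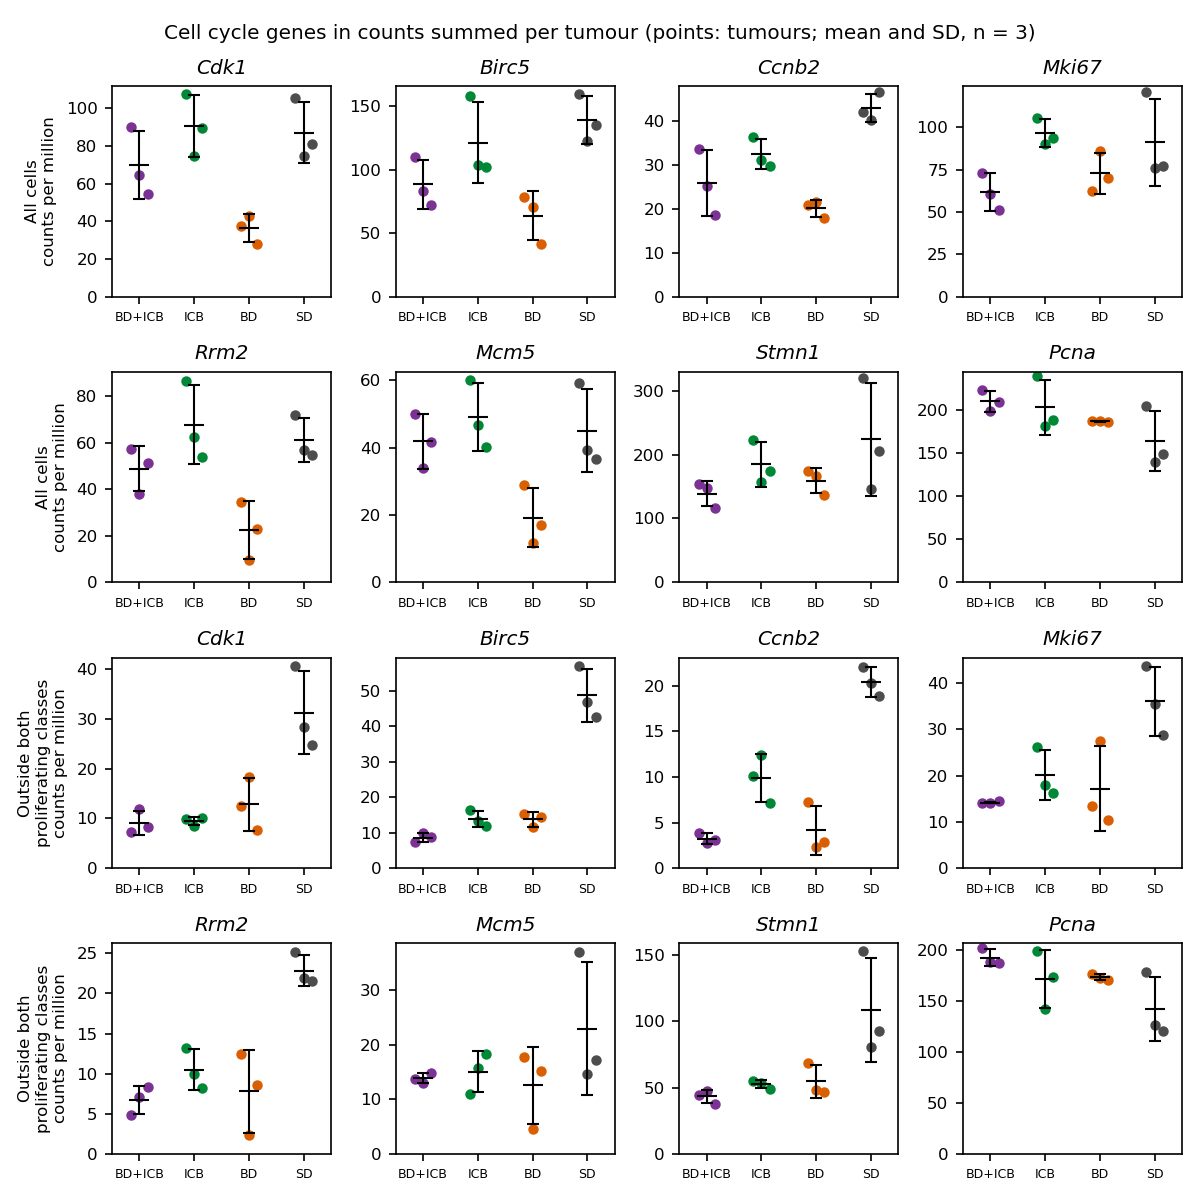
Levels (CPM) of 8 cell cycle genes in each tumour, summed over all cells and over cells outside both proliferating classes. Points are tumours, lines the mean and SD (n = 3), and the BD points of Cdk1, Birc5 and Ccnb2 lie below all SD points in both sums.

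Under blockade the same diet gave no called member. In BD+ICB against ICB tumours, 0 of 34 members passed (edgeR, against 6.48% of all genes called and 3.77% called lower), 8 had an unadjusted p under 0.05, and DESeq2 called 0. The median log2 fold change was -0.27, against 0.00 over all genes, and 32 of 34 folds were below 0. All BD+ICB tumours were below all ICB tumours for 15 members, a count not made over all genes. Mki67 was at 73.1, 60.9 and 51.0 CPM in BD+ICB, against 105.7, 90.1 and 93.5 CPM in ICB tumours. The groups were apart, with a log2 fold change of -0.53 ± 0.18 (edgeR adjusted p = 0.089). Top2a was at 119.6, 95.4 and 87.5 CPM in BD+ICB, against 152.8, 129.6 and 134.9 CPM in ICB tumours, also apart. Cdk1 was at 90.1, 64.9 and 54.7 CPM in BD+ICB, against 107.9, 75.0 and 89.4 CPM in ICB tumours, and these overlapped (-0.27, edgeR adjusted p = 0.42). The log2 fold changes of Birc5, Rrm2, Stmn1 and Mcm5 were -0.34, -0.36, -0.29 and -0.11, and those of Ccnb1 and Pcna 0.05 and 0.17.

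Whether the diet effect differed between the libraries was tested as an interaction. In the sums over all cells 0 of 34 members passed (edgeR, background 0.00%), 8 had an unadjusted p under 0.05, and DESeq2 called 0. The smallest adjusted p was that of Cdk1, whose difference (BD+ICB over ICB minus BD over SD) was 0.89 on the log2 scale (edgeR adjusted p = 0.28). With both libraries in one diet effect, 17 of 34 members were lower in the diet tumours and 0 higher, against 30.6% of all genes called and 15.2% called lower. The median member log2 fold change was then -0.47.

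Outside both proliferating classes, in BD against SD tumours, 11 of 34 members fell and 0 rose (edgeR, against 5.00% of genes called and 2.76% called lower), with a median log2 fold change of -0.95, against -0.01 over all genes. None of the 5 mitotic kinases and checkpoint genes passed. For 20 members all BD tumours were below all SD tumours, with no such count over all genes to set beside it. Birc5 was at 15.4, 11.5 and 14.3 CPM in BD, against 56.9, 46.8 and 42.5 CPM in SD tumours. The gap was wide against the spread, with a log2 fold change of -1.72 ± 0.20 (edgeR adjusted p = 0.0039). Ccnb2 was at 7.21, 2.30 and 2.87 CPM in BD, against 22.0, 20.3 and 18.8 CPM in SD tumours (-1.96 ± 0.34, edgeR adjusted p = 0.015). Cdca8 was at 4.81, 4.60 and 1.91 CPM in BD, against 23.0, 21.9 and 11.5 CPM in SD tumours (-2.22 ± 0.42, edgeR adjusted p = 0.018). All 3 genes act in mitosis, and none of their groups overlapped. All 34 members together held only 1346, 203 and 525 UMIs outside both classes in BD 1, BD 2 and BD 3. In SD tumours they held 3830, 1559 and 2803. The lowest BD values of Ccnb2 and Cdca8 therefore rest on very few UMIs, and the size of their gaps is imprecise.

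Mki67 and Top2a, which did not pass over all cells, passed here. Mki67 was at 13.5, 27.6 and 10.5 CPM in BD, against 43.8, 35.6 and 28.9 CPM in SD tumours (-1.23 ± 0.30, edgeR adjusted p = 0.036). Top2a was at 12.02, 9.20 and 7.65 CPM in BD, against 34.3, 20.3 and 21.5 CPM in SD tumours (-1.29 ± 0.30, edgeR adjusted p = 0.032). For both, BD tumours lay below SD tumours throughout. Stmn1 was at 68.7, 48.3 and 46.8 CPM in BD, against 153, 80.3 and 92.4 CPM in SD tumours (-0.90 ± 0.22, edgeR adjusted p = 0.036), and Rrm2 at 12.5, 2.30 and 8.60 CPM in BD, against 25.1, 21.9 and 21.5 CPM in SD tumours (-1.22 ± 0.33, edgeR adjusted p = 0.049). These groups were apart as well, though the Rrm2 value of BD 2 again rests on very few UMIs. Cenpf, Ccna2, Cdca3 and Cdk1 completed the called set with log2 fold changes of -2.13, -1.85, -1.60 and -1.36. Ube2c (-1.62, edgeR adjusted p = 0.051) and Ccnb1 (-1.32, edgeR adjusted p = 0.085) just missed, Mcm5 was at -0.63 and Pcna at 0.34.

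Mesenchymal cells moved with this result. They were 2.64, 2.86 and 0.855% of cells in BD, against 11.5, 14.0 and 10.9% in SD tumours, and they supplied 11.9, 9.36 and 2.48% of member UMIs outside the proliferating classes in BD, against 53.8, 63.4 and 49.4% in SD tumours. Without mesenchymal cells, a setting chosen after the data were seen, 0 of 31 members tested were called by edgeR, with 2 at an unadjusted p under 0.05, and 0 of 10315 genes were called. The median log2 fold change was then -0.35, that of Birc5 -0.31, of Ccnb2 -0.68 and of Mki67 -0.72, while Cdk1 and Rrm2 were at 0.17 and 0.065. Leaving out single tumours gave 1 called member without BD 3, 2 without SD 1, 2 without SD 2, 3 without BD 1, 6 without SD 3 and 7 without BD 2. No share over all genes is given for these settings, so the lower counts are not read as a trait of the members.

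**Figure D4:**
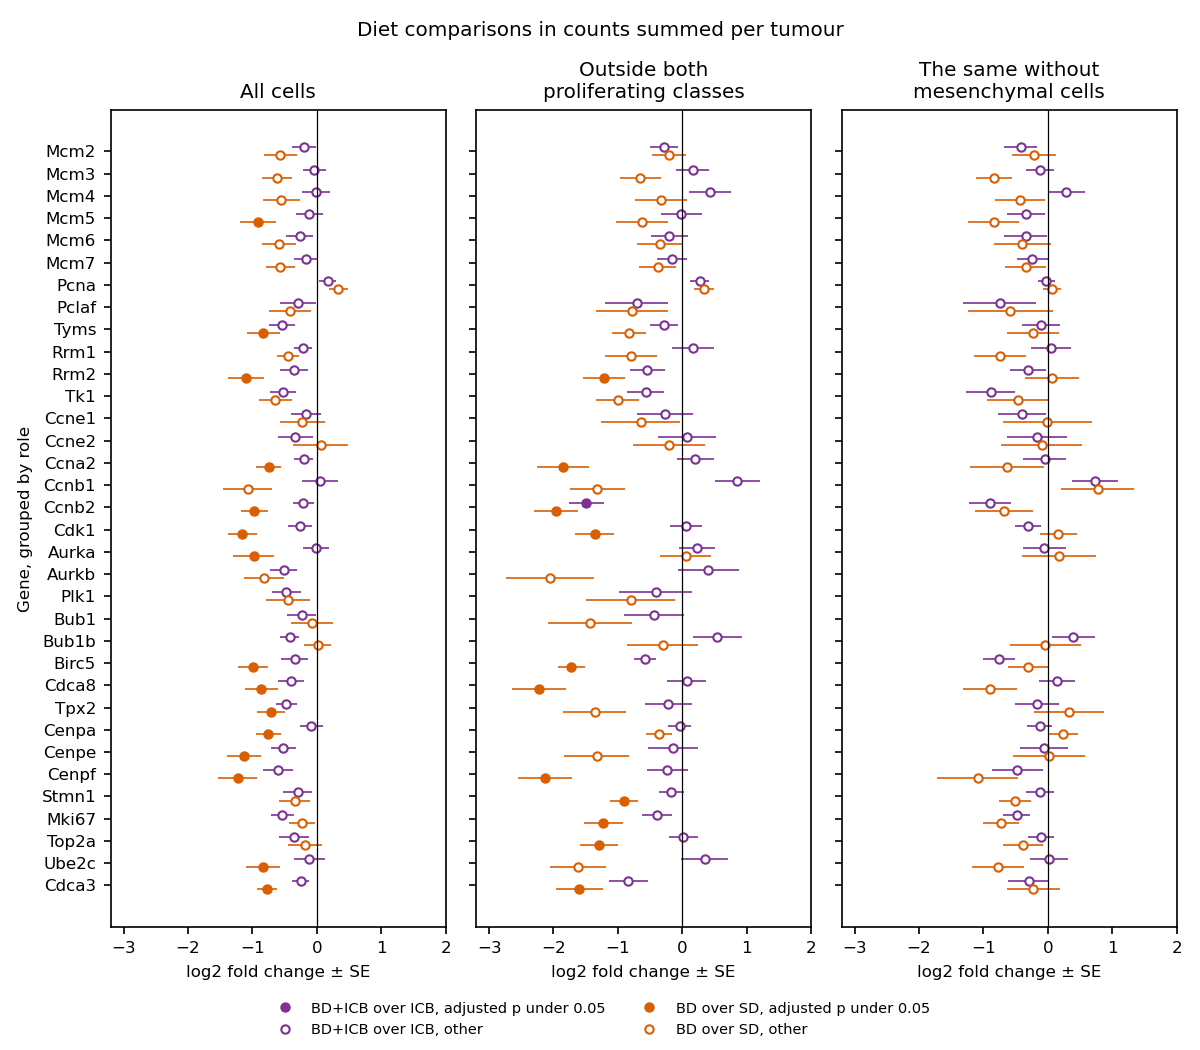
Log2 fold changes with SE of all 34 cell cycle genes where tested, BD+ICB over ICB and BD over SD, in sums over all cells, outside both proliferating classes, and outside them without mesenchymal cells. The BD over SD values of Birc5 are -0.98, -1.72 and -0.31 in the 3 panels.

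In BD+ICB against ICB tumours outside the proliferating classes, Ccnb2 alone passed. It was at 3.89, 2.73 and 3.05 CPM in BD+ICB, against 10.1, 12.4 and 7.18 CPM in ICB tumours, with a log2 fold change of -1.49 ± 0.27 (edgeR adjusted p = 0.017). The groups were apart. That is 1 of 34 members, against 4.62% of genes called and 3.81% called lower, and 4 members had an unadjusted p under 0.05. For 8 members all BD+ICB tumours were below all ICB tumours, and for 1 above, counts not made over all genes. Birc5 (-0.58, edgeR adjusted p = 0.072), Mki67 (-0.40), Rrm2 (-0.54), Stmn1 (-0.17), Cdk1 (0.06), Mcm5 (-0.02), Top2a (0.02) and Pcna (0.27) did not pass. Mesenchymal cells were 0.350, 1.23 and 1.18% of cells in BD+ICB, against 3.73, 4.22 and 1.64% in ICB tumours, and without them Ccnb2 was at -0.90 (edgeR adjusted p = 0.27). Without BD+ICB 1, BD+ICB 2 or ICB 2 the count was 0, and without ICB 3 it was 3, with no share over all genes given here. The difference between the diet effects of the libraries gave 0 of 34 members by edgeR (background 0.00%), 11 at an unadjusted p under 0.05, and DESeq2 gave an adjusted p for none of them. The smallest edgeR adjusted p was 0.46, for Birc5 (1.14) and Cdca8 (2.29). Over both libraries 13 members were lower and 0 higher, against 17.9% of genes called and 10.5% called lower.

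Among Prof_cancer cells, no member passed the test of the diet with blockade. In 2 BD+ICB tumours with at least 10 such cells against 3 ICB tumours, 0 of 34 members passed by edgeR, against 1.06% of the genes tested. An unadjusted p under 0.05 was reached by 9 members, DESeq2 called 0, and the median log2 fold change was -0.03, against 0.00 over all genes. BD+ICB tumours lay below all ICB tumours for 8 members and above all for 6. With 2 against 3 tumours such gaps arise easily, and all genes were not counted for them. Mki67 was at 180.6 and 179.6 CPM in BD+ICB, against 228, 246 and 286 CPM in ICB tumours (-0.40 ± 0.12, edgeR adjusted p = 0.17). Ccnb1 was at 199.9 and 162.5 CPM in BD+ICB, against 124, 101.5 and 149 CPM in ICB tumours (0.62 ± 0.17, edgeR adjusted p = 0.13). The groups were apart in opposite directions for these 2 genes.

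Mitotic genes with positive differences in Prof_cancer were Ube2c, at 501 and 418 CPM in BD+ICB, against 346, 323 and 417 CPM in ICB tumours (0.43 ± 0.14, edgeR adjusted p = 0.20), and Ccnb2, at 115 and 108.5 CPM in BD+ICB, against 82.8, 73.9 and 83.4 CPM in ICB tumours (0.56 ± 0.24, edgeR adjusted p = 0.38). Aurka was at 51.4 and 51.3 CPM in BD+ICB, against 40.2, 35.1 and 41.1 CPM in ICB tumours (0.48, edgeR adjusted p = 0.27). Tyms had a negative difference, at 115.5 and 120.4 CPM in BD+ICB, against 159, 152 and 158 CPM in ICB tumours (-0.32, edgeR adjusted p = 0.28). All 4 were apart between groups. Stmn1 was at 353 and 352 CPM in BD+ICB, against 468, 391 and 450.2 CPM in ICB tumours (-0.22, edgeR adjusted p = 0.47). The log2 fold changes of Cdk1, Birc5, Top2a, Mcm5, Rrm2 and Pcna were 0.18, 0.15, -0.13, 0.18, -0.19 and -0.03. The epithelial marker sum was 426 to 590 CPM in BD+ICB, against 904 to 1173 CPM in ICB tumours, and the neutrophil marker sum 4.72 to 70.4 CPM in BD+ICB, against 53.5 to 653 CPM in ICB tumours. Their part in these values was not tested.

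Among Prof_immune cells, BD+ICB against ICB tumours gave 0 of 34 members by edgeR (background 0.00%), 1 at an unadjusted p under 0.05 (Tyms, 0.69, edgeR adjusted p = 0.52) and 0 by DESeq2. The median log2 fold change was 0.21, against -0.01 over all genes. Mki67 was at 832, 569 and 393 CPM in BD+ICB, against 443, 491.5 and 302 CPM in ICB tumours, which overlapped (0.55, edgeR adjusted p = 0.57). Stmn1 was at 1542, 1470 and 741 CPM in BD+ICB, against 1099, 635 and 702 CPM in ICB tumours (0.62, edgeR adjusted p = 0.53), and Top2a at 838, 726.5 and 489 CPM in BD+ICB, against 562, 520.2 and 431 CPM in ICB tumours (0.45). The log2 fold changes of Rrm2, Birc5, Cdk1, Pcna, Mcm5 and Ccnb1 were 0.63, 0.16, -0.02, -0.02, -0.05 and -0.13. The T cell marker sum in these cells was 853 to 4732 CPM in BD+ICB, against 418 to 1277 CPM in ICB tumours, and the macrophage and monocyte sum 2430 to 10725 CPM in BD+ICB, against 12619 to 21796 CPM in ICB tumours. Their part in the differences was not tested.

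Class by class, no member passed the test of the diet. In BD against SD tumours, 0 of 17 pairs of a member and a class passed in the 4 classes with enough cells (Cxcr2+ neutrophils and M1, Mmp+ M2 and Trem2+ M2 macrophages), against 0.0309% of all pairs called by edgeR. There 1 pair had an unadjusted p under 0.05 and DESeq2 called 0. That pair was Pcna in Mmp+ M2 macrophages, at 157 ± 37.6 CPM in BD, against 228 ± 36.4 CPM in SD tumours (SD, n = 3 each; log2 fold change -0.66 ± 0.26, edgeR adjusted p = 0.48). Elsewhere Pcna had log2 fold changes of 0.24 in Cxcr2+ neutrophils, 0.26 in M1 and 0.30 in Trem2+ M2 macrophages. Stmn1 had -0.06, -1.04 and -0.37 in those classes, and Mki67 -0.27 in M1 and 0.27 in Trem2+ M2 macrophages. In BD+ICB against ICB tumours, 0 of 140 pairs in 13 classes passed by edgeR (background 0.307%), with 16 at an unadjusted p under 0.05 and 0 by DESeq2. Those outside the proliferating classes included Ccnb2 (-3.33) and Birc5 (-1.97) in other macrophages, Stmn1 in NK cells (-2.71, edgeR adjusted p = 0.13), Mcm3 in CD8 T cells (0.98, edgeR adjusted p = 0.31) and Pcna in other dendritic cells (1.12, edgeR adjusted p = 0.27). The difference between the libraries gave 0 of 17 pairs by edgeR (0.00515% of all pairs), 0 at an unadjusted p under 0.05. The diet over both libraries also gave 0 of 17 (0.0309% of all pairs), 2 of them at an unadjusted p under 0.05.

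The only called members within classes came from ICB against SD tumours, a comparison in which blockade and library cannot be told apart. In ICB against SD tumours 18 of 153 pairs fell and 0 rose (edgeR, against 2.44% of all pairs), all in mesenchymal cells and other macrophages. In mesenchymal cells 10 of 27 members fell, against 4.44% of genes called and 2.47% called lower, and all 27 folds were below 0 (median -1.34, against 0.01 over all genes). All ICB tumours were below all SD tumours for 25 of 34 members. That count includes members too low to be tested and was not made over all genes. Ccnb1 was at 3.82, 3.92 and 6.48 CPM in ICB, against 27.9, 39.4 and 33.97 CPM in SD tumours, a log2 fold change of -3.04 ± 0.33 (edgeR adjusted p = 0.00038). Cdk1 was at 16.9, 7.19 and 17.8 CPM in ICB, against 97.8, 65.2 and 55.5 CPM in SD tumours (-2.55 ± 0.33, edgeR adjusted p = 0.0025). Both groups were far apart for the kinase and its cyclin.

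Further mesenchymal members that fell were Birc5, at 43.6, 20.3 and 22.7 CPM in ICB, against 134.5, 101.8 and 100.2 CPM in SD tumours (-2.01 ± 0.28, edgeR adjusted p = 0.0030), and Tk1, which salvages thymidine for DNA synthesis, at 6.55, 3.92 and 1.62 CPM in ICB, against 27.9, 35.3 and 23.2 CPM in SD tumours (-2.69 ± 0.37, edgeR adjusted p = 0.0024). Stmn1 was at 99.8, 87.6 and 85.9 CPM in ICB, against 229, 134 and 141 CPM in SD tumours (-0.997, edgeR adjusted p = 0.016). None of these groups overlapped. Cenpf, Cdca8, Ccna2, Mcm5 and Cenpa fell by 2.57, 1.99, 1.96, 1.65 and 1.41 on the log2 scale. Mki67 was at 36.0, 19.0 and 8.10 CPM in ICB, against 66.4, 58.4 and 43.9 CPM in SD tumours (-1.37, edgeR adjusted p = 0.077). Rrm2 (-1.27), Top2a (-1.34) and Pcna (-0.46) did not pass either. The mesenchymal cells compared numbered 31, 24 and 15 in ICB, against 48, 39 and 57 in SD tumours, with median depths of 28725 to 62845 UMIs in ICB, against 8959 to 10635 UMIs in SD tumours, and a macrophage marker sum of 329 to 1144 CPM in ICB, against 2434 to 4423 CPM in SD tumours. The part of depth and of macrophage RNA was not tested.

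In other macrophages, over 3 ICB and 2 SD tumours, 8 of 19 members fell (Mcm3, Mcm4, Mcm7, Pclaf, Rrm1, Tk1, Stmn1 and Mki67), against 4.00% of genes called and 2.39% called lower. The median log2 fold change was -0.89, against 0.01 over all genes. Stmn1 was at 94.1, 81.4 and 96.5 CPM in ICB, against 341.4 and 293.6 CPM in SD tumours (-1.84 ± 0.21, edgeR adjusted p = 3.2e-06). Mcm7 was at 54.2, 33.2 and 41.5 CPM in ICB, against 131 and 101 CPM in SD tumours, and Mcm4 at 31.4, 30.1 and 45.3 CPM in ICB, against 99.8 and 83.9 CPM in SD tumours. Their log2 fold changes were -1.50 and -1.32 (edgeR adjusted p = 0.0031 and 0.013), and no groups overlapped. Pclaf was at 11.4, 30.1 and 45.3 CPM in ICB, against 150 and 122 CPM in SD tumours (-2.07, edgeR adjusted p = 0.026), and Mki67 at 39.9, 30.1 and 8.68 CPM in ICB, against 76.2 and 62.9 CPM in SD tumours (-1.78, edgeR adjusted p = 0.037). Tk1, Rrm1 and Mcm3 fell by 1.99, 1.21 and 0.89 on the log2 scale. Mcm5 (-0.78), Pcna (-0.43), Cdk1 (-1.09), Top2a (-0.62), Rrm2 (-0.86) and Birc5 (-0.47) did not pass. DESeq2 gave an adjusted p for 1 of these 19 members and called 0. The macrophage marker sum was 15759 to 20624 CPM in ICB, against 24912 to 29720 CPM in SD tumours.

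**Figure D5:**
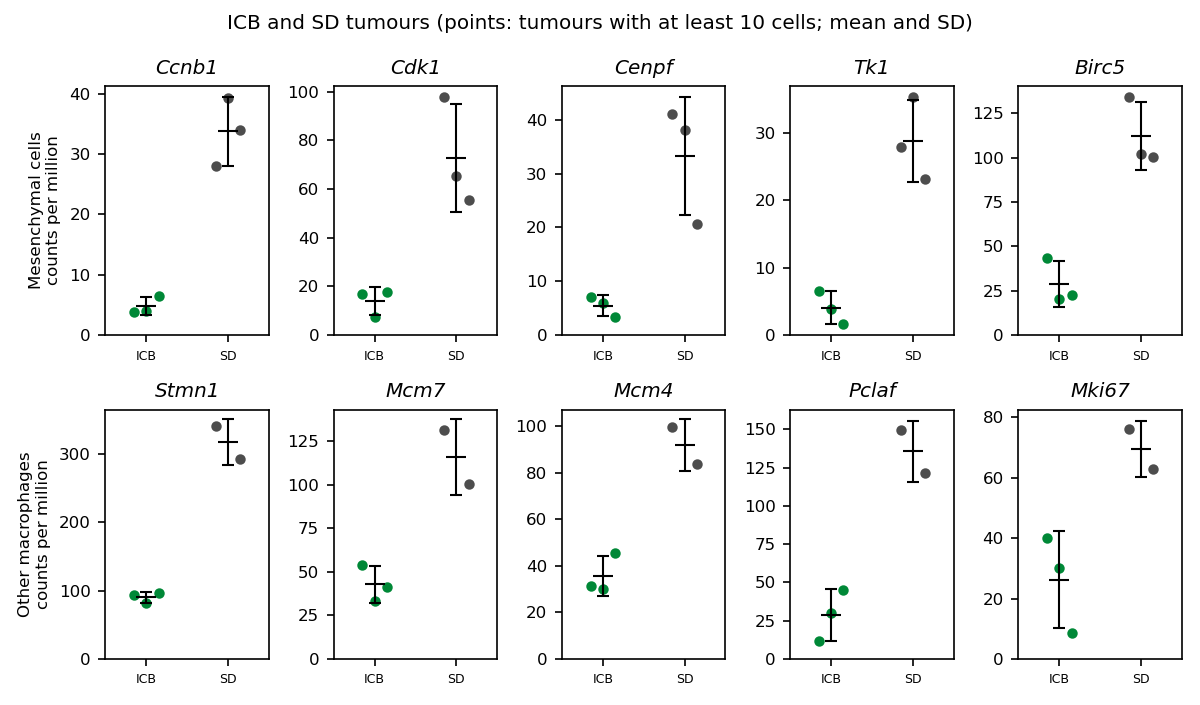
Levels (CPM, one point per tumour, lines at the mean and SD) in ICB and SD tumours of 5 cell cycle genes in mesenchymal cells and 5 in other macrophages. Every ICB point lies below every SD point in each panel.

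In Prof_cancer ICB against SD tumours gave 0 of 34 members by edgeR (background 0.551%), 6 at an unadjusted p under 0.05, of which Top2a was at 0.57 (edgeR adjusted p = 0.078), and 1 by DESeq2, beside 96 of 9613 genes. In Prof_immune it gave 0 (background 0.0365%), 1 at an unadjusted p under 0.05 and 0 by DESeq2. Outside both proliferating classes 15 of 34 members fell (against 6.60% called and 3.53% called lower; median -1.08, against 0.02 over all genes), among them Birc5 (-1.84, edgeR adjusted p = 0.00024), Ccnb1 (-2.32), Ube2c (-2.15), Cdk1 (-1.75) and Mki67 (-0.87, edgeR adjusted p = 0.043). Without mesenchymal cells 1 of 31 was called, Stmn1 (-0.89, edgeR adjusted p = 0.037), beside 450 of 10315 genes. In sums over all cells 0 of 34 passed by edgeR (background 2.89%, and 1.55% lower), 4 had an unadjusted p under 0.05 and DESeq2 called 0. Without SD 1 the count of 18 pairs within classes was 9, with no share over all pairs given for that setting. With a minimum of 30 cells neither mesenchymal cells nor other macrophages could be tested.

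In BD+ICB against BD tumours, which also differ by library, 2 of 34 members rose in the sums over all cells, against 8.80% of genes called and 3.90% called higher. They were Cdk1 (0.89 ± 0.23, edgeR adjusted p = 0.031) and Aurka (1.06 ± 0.30, edgeR adjusted p = 0.047), at the Cdk1 levels given above for both groups. In all, 9 had an unadjusted p under 0.05, and DESeq2 called 4, beside 1396 of 11983 genes. Outside the proliferating classes 0 passed by edgeR (background 4.15%), with 3 at an unadjusted p under 0.05 and 0 by DESeq2. Within classes 0 of 17 pairs passed by edgeR (background 2.29%), with 2 at an unadjusted p under 0.05 and 0 by DESeq2.

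As a share of cells, Mki67 did not pass a test of the diet. Of immune cells thinned to 1000 UMIs, it was seen in 1.62, 2.38 and 2.65% in BD+ICB, against 3.56, 1.92 and 3.13% in ICB tumours, and in 3.10, 4.41 and 3.45% in BD, against 5.01, 2.19 and 1.63% in SD tumours. The groups overlapped in both libraries, and the diet difference was 0.0283 percentage points (exact two-sided permutation of diet within libraries, p = 0.96, smallest possible p 0.005; adjusted over the 2 shares tested, 0.96). Unthinned, the mean shares were 11.9% in BD+ICB, 12.1% in ICB, 13.8% in BD and 13.7% in SD tumours. In CD8 T cells, whose division follows activation, the share was 1.25, 1.21 and 1.75% in BD+ICB, against 0.847, 0 and 0% in ICB tumours. These are shares of 80, 165 and 57 cells in BD+ICB and 118, 51 and 46 cells in ICB tumours, so few cells had a UMI. The CD8 class leaves out the T-only cells of Prof_immune, 16 in BD+ICB and 12 in ICB tumours. Mki67 was seen unthinned in 100% of the 33 T-only cells, so a low share in the CD8 class follows partly from how the classes were drawn. The BD+ICB tumours were all above the ICB tumours, by 1.12 points on average (exact two-sided permutation test, p = 0.1, the smallest this design allows; adjusted 0.2). A share of 0 in 51 and 46 cells of ICB 2 and ICB 3 allows up to 5.88% and 6.52%, and 0 in the 11 and 12 cells of SD 1 and SD 3 up to 27.3% and 25%. All the CD8 shares lie at or below the 2.57% of thinned Cxcr2+ neutrophils and so at the background, and when thinned to 2000 UMIs the difference was -1.15 points.

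Genes of the same pathway outside the 34 were read from 4 further lists. In BD against SD tumours summed over all cells, 7 of 36 S phase genes fell and 0 rose (median log2 fold change -0.56), and 20 of 41 G2 and mitosis genes tested fell and 1 rose (median -0.74), beside 10.2% of all genes called lower. Over all assigned barcodes, 0 of 13235 genes were called by edgeR, so none of the list calls in this comparison remained there. The called S phase genes with the smallest p were Tipin (-0.97), Dut (-0.99), Hells (-1.20) and Pola1 (-1.18). Those of mitosis included Anln (-1.19), Cks2 (-0.74), Cks1b (-1.12) and Gas2l3, which rose (0.94). Of 9 G1 cyclins and kinases Cdk4 fell (-0.91, edgeR adjusted p = 0.0021). Of 14 inhibitors and brakes, 3 fell and 3 rose. Cdkn1a (p21), a Cdk inhibitor, was at 569, 693 and 625 CPM in BD, against 265, 305 and 324 CPM in SD tumours, and rose by 1.23 ± 0.13 on the log2 scale (edgeR adjusted p = 0.00042). Rb1, which holds E2F in check, rose by 0.84. Cdkn2a was at 85.8, 21.5 and 19.7 CPM in BD, against 246, 268 and 208 CPM in SD tumours, and fell by 2.18, and Cdkn2c fell by 0.98. The mesenchymal marker sum was 373 to 1232 CPM in BD, against 2872 to 4034 CPM in SD tumours, and the epithelial marker sum 51.3 to 197.5 CPM in BD, against 465 to 622 CPM in SD tumours. Their part in these list values was not tested.

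Under blockade, Cdkn1a was at 482, 416 and 447 CPM in BD+ICB, against 329, 314 and 362 CPM in ICB tumours and rose by 0.53 (edgeR adjusted p = 0.028). Cdkn2c was at 19.1, 13.3 and 16.1 CPM in BD+ICB, against 36.0, 40.8 and 31.8 CPM in ICB tumours and fell by 1.04 (edgeR adjusted p = 0.0060). These groups were apart. Over all assigned barcodes 2 of 13235 genes were called in this comparison, and the mesenchymal marker sum was 1094 to 1686 CPM in BD+ICB, against 1994 to 4893 CPM in ICB tumours. Of the S phase list 0 of 36 passed by edgeR (3 at an unadjusted p under 0.05), of the G2 and mitosis list 1 of 41 (Prc1, -0.68), of the G1 list 0 of 9 (2 at an unadjusted p under 0.05), and of the brakes 2 fell and 2 rose. Over all genes in these sums, 6.48% were called and 3.77% called lower. Outside the proliferating classes in BD against SD tumours, 2 of 34 S phase genes fell, 7 of 36 G2 and mitosis genes fell and 1 rose, and 2 of 13 brakes fell and 2 rose, beside 5.00% of all genes called and 2.76% called lower. Without mesenchymal cells 0 of 10315 genes were called there by edgeR. In ICB against SD tumours, mesenchymal cells had 3 of 18 S phase and 8 of 27 G2 and mitosis genes lower, beside 2.47% of all genes called lower, and other macrophages 7 of 21 and 1 of 13, beside 2.39%.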

How the data were processed

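Single-cell RNA of 12 tumours was measured in 2 pooled 10x libraries, and hashtag antibody counts tied each barcode to a tumour. The deposited expression table holds raw UMI counts per gene and cell, made with Cell Ranger on mm10 per the submitters' processing notes, which also name R 4.1. The deposited table of cells gives the class, the treatment, the tumour and the percent of mitochondrial UMIs of each cell, as the authors assigned them. For the settings of clustering and the tool that counted hashtags no source used here gives a value. Tested on the files, the deposited cells were those with a hashtag total over 500, under 5 percent mitochondrial UMIs and at least 250 genes, each given to its top hashtag. No doublet caller was run.

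Counts were summed per tumour over all cells, over cells outside both proliferating classes, and per class with at least 10 cells of a tumour, given 2 such tumours per group. Each sum was tested across all genes with edgeR 4.0.16 (TMM scaling, filterByExpr, robust quasi-likelihood test, all 4 treatments in one fit) in R 4.3.3, with Benjamini-Hochberg adjustment and a threshold of 0.05. The edgeR steps were tested on simulated data for BD+ICB over ICB. Of 100 genes changed 2-fold, 58 were recovered over all cells, 45 in Prof_cancer and 15 in Prof_immune. Of 100 changed 4-fold, 93, 82 and 67 were recovered. A count of 0 called members, above all in Prof_immune, therefore does not show that 2-fold changes are absent. Alternatives were DESeq2 1.42.0, its size factors, unfiltered low counts, a minimum of 30 cells, stricter hashtags, all assigned barcodes, one library alone, a replicate block, and each tumour left out. Values in parentheses after genes are log2 fold changes, with ± SE where given. Shares of cells used thinning to 1000 UMIs (2000 as an alternative) and an exact permutation test. Limits for a share of 0 use 3 counts and cover counting error only.

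Named in each comparison were members past the threshold and Mki67, Top2a, Cdk1, Ccnb1, Birc5, Mcm5, Pcna, Rrm2 and Stmn1 where tested, and up to 4 genes of each other list. The members and lists were chosen with earlier results of these data known. Tumours are not tied to mice in the labels, so p-values measure the spread between these tumours. Tumours of 70 to 913 cells differ in precision.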

Additional observations from a re-analysis of the deposited data

Results flagged for a closer look

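Much of the cell cycle RNA lay in droplets that the table of cells leaves out. Of the member UMIs in barcodes assigned to a tumour, the share in droplets under the hashtag limit was 65.8, 46.8 and 83.9% in BD+ICB, 73.3, 68.4 and 61.3% in ICB, 85.5, 79.2 and 79.2% in BD, and 72.3, 65.2 and 69.7% in SD tumours. The lowest share was 46.8% in BD+ICB 2 and the highest 85.5% in BD 1. These droplets entered no comparison above except the alternative over all assigned barcodes, in which the 34 genes together stood at 2827, 2078 and 2870 CPM in BD+ICB, 3534, 2451 and 2713 CPM in ICB, 2556, 2082 and 2169 CPM in BD, and 3096, 2194 and 2441 CPM in SD tumours. The BD and SD ranges, apart in the deposited cells, overlapped there. Whether these droplets hold whole cells was not tested.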

How the results depend on the processing

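Counts of called members depended on which cells and tumours entered. For counts with a tumour left out, stricter hashtags or no filter, shares over all genes are not given here. Over all cells, BD over SD (15 called) gave 0 with all assigned barcodes, where Aurka (0.055) and Tyms (0.060) turned positive, and 3 to 17 with a tumour left out. BD+ICB over ICB (0 called) gave 2 with only that library's tumours, beside 842 of 12148 genes. Outside the proliferating classes, BD over SD (11 called) gave 0 without mesenchymal cells, where Cdk1 (0.17) and Rrm2 (0.065) turned positive, and 1 to 12 with a tumour left out. BD+ICB over ICB (1 called) gave 0 without mesenchymal cells, 0 with only that library's tumours, 2 with stricter hashtags and 0 to 3 with a tumour left out. Within classes, BD+ICB over ICB (0 called) gave 4 without the filter on low counts and 0 to 1 with a tumour left out, and ICB over SD (18 called) gave 33 without the filter and 9 to 21 with a tumour left out. At 30 cells or more it gave 0, since neither class that held the calls could then be tested. The Mki67 share of immune cells (0.0283 points) was -1.12 thinned to 2000 UMIs, -0.0270 not thinned, -0.0889 without Prof_immune cells and -0.300 to 0.545 with a tumour left out, and that of CD8 T cells (1.12 points) was -1.15 thinned to 2000 UMIs and 0.949 to 1.41. The settings without mesenchymal or Prof_immune cells were chosen after the data were seen, and the cause of these changes was not tested. The 70 cells of BD 2 and the 117 of BD 3 limit the precision of the BD values.

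Tumours share only a number across groups: deviations of same-numbered tumours correlated by 0.170, 0.025 and 0.257 (BD+ICB with ICB) and 0.249, 0.068 and 0.048 (BD with SD). With the replicate block, BD over SD over all cells gave 22 of 34 called members, beside 2716 of 11988 genes. BD+ICB over ICB over all cells gave 3 of 34, beside 1322 of 11988 genes. Within classes the block gave 2 pairs in BD+ICB over ICB and 24 in ICB over SD, for which no count over all genes is given here.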
